A study of Mus musculus with 4 samples.

Results

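The cytosolic ribosomal protein genes encode the proteins of the large and small subunits of the ribosome that translates mRNAs of the nucleus. They were taken here as the protein-coding mouse genes whose symbol is Rpl or Rps followed by a digit, with Rplp0, Rplp1, Rplp2 and Rpsa, leaving out the Rps6k kinases and symbols of pseudogenes. The rule gave 86 of 21951 protein-coding genes, 52 of the large subunit (Rpl) and 34 of the small subunit (Rps). By its letters the rule also takes in paralogs with restricted expression (Rpl3l, Rpl10l, Rpl39l), Rpl7l1, a factor of ribosome assembly, and Rps19bp1, a protein that binds Rps19; they were kept.

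The data came from mouse bone-marrow-derived macrophages (BMDMs), from which RNA bound to IGF2BP2 was isolated by immunoprecipitation and sequenced. The report uses 2 immunoprecipitate libraries, IGF2BP2_IP replicates 1 and 2, each with its own list of peaks, stretches of the genome where sequenced tags pile up. The 2 input libraries, IGF2BP2_input replicates 1 and 2, were not analysed here. The labels name no genotype, stimulus or age, and give no culture or animal for a replicate, so the spread between the 2 libraries may be technical. They name an antibody against IGF2BP2 in the characteristics but a Flag antibody in the protocol. Replicate 1 held 15511 peaks with 189393 tags and replicate 2 held 22570 peaks with 324456 tags. These totals are tags in peaks, not library sizes, so the depth is unknown. Of 12 macrophage markers, 7 had a peak in each library and 6 in both, among them Csf1r, Adgre1 and Mertk in at least 1 library, with 2573 and 4418 tags in replicates 1 and 2. Among markers of other cells, Cd3e of T cells had 3 tags in replicate 1 only, Mpo of neutrophil precursors had 10 tags in replicate 2 only, and the B cell, fibroblast and dendritic cell lists had no peak.

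Ribosomal protein mRNAs are short, carry a tract of pyrimidines at their start and are among the most abundant mRNAs of growing cells. Many of the genes also carry small nucleolar RNAs (snoRNAs) in their introns, which are cut from the spliced intron. Box C/D snoRNAs guide 2′-O-methylation and box H/ACA snoRNAs guide pseudouridylation of ribosomal RNA. IGF2BP2 binds mRNAs and is known as an m6A reader, m6A being adenosine with a methyl group that cells add to mRNA.

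Peaks on the sense strand of these genes lay in exons, across exon borders and in introns. Of the peaks wholly in introns, 7 of 11 in replicate 1 and 10 of 18 in replicate 2 overlapped a snoRNA. The 5 snoRNAs below are shown because a peak had its summit in each of them in both libraries, or, for Snord15b, because it held the strongest peak of any ribosomal protein gene. Sequences are the sense strand, 5′ to 3′, from the GENCODE release 21 transcripts for mouse (GRCm38). Capitals mark TGATGA within the first 20 nt together with CTGA within the last 20 nt, as in the C and D boxes, only where a snoRNA holds both, or ACA ending 3 nt before the 3′ end, as in the ACA box. The search was on the sense strand only, and AF357399 held neither pattern.
Gm26205 (intron of Rpl6, chr5:121205010-121205143, plus strand): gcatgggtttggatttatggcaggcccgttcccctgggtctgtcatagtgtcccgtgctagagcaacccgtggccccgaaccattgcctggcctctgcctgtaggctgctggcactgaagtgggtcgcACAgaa
Snora33 (intron of Rps12, chr10:23785347-23785475, minus strand): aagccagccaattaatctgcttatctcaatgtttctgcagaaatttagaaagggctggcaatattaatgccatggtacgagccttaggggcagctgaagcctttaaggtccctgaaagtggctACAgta
AF357399 (intron of Rps16, chr7:28351508-28351632, plus strand): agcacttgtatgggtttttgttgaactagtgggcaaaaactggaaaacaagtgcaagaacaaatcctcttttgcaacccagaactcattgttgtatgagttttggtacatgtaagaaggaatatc
Snord21 (intron of Rpl5, chr5:107904555-107904648, plus strand): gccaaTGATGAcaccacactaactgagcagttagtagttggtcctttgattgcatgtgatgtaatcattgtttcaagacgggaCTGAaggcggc
Snord15b (intron of Rps3, chr7:99479563-99479707, minus strand): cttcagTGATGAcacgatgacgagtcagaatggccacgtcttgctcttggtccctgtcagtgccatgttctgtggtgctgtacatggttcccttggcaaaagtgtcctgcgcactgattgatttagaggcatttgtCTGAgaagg

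Coding exons that carried peaks are shown with the letters GGAC, the core of the consensus m6A site, in capitals, again from GENCODE on GRCm38. Rps15 exon 3 is shown because its peaks began at the exon start in both libraries (the 195 nt of the replicate 1 peak are given). It was not alone: peaks of both libraries also began at the same base in Rps9 exon 2, Rpl8 exon 6 and Rpl13a exon 2. Rps9 exon 4 is shown because a peak of 40 tags covered it from end to end in replicate 2. That peak was the strongest one assigned to exons in any ribosomal protein gene.
Rps15 (exon 3 of 4, chr10:80293642-80293836, plus strand): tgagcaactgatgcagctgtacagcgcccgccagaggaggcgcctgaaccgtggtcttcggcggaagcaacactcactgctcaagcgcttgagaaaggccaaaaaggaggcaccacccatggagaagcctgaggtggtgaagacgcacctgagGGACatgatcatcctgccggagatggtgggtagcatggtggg
Rps9 (exon 4 of 5, chr7:3705733-3705919, plus strand): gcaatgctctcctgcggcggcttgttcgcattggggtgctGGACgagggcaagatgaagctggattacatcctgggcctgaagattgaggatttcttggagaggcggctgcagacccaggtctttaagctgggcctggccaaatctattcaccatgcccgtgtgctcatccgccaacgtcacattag

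The Rps15 and Rps9 stretches held 1 GGAC each. Over the exonic peaks that lay within 1 exon, 9 of 15 in replicate 1 (60%, exact 95% interval 32.3% to 83.7%) and 7 of 19 in replicate 2 (36.8%, 16.3% to 61.6%) held GGAC on the sense strand. Among the other protein-coding genes the shares were 51.7% and 51.6%, inside both intervals. Per kb of peak, ribosomal protein genes held 5.57 and 2.74 GGAC in replicates 1 and 2, against 4.84 and 4.72 in the other genes. The peaks were short in both sets, with medians of 109 and 136 nt against 146 and 151 nt. The part of peak length in these shares was not tested.

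A peak on the sense strand was found for 30 ribosomal protein genes in replicate 1, for 42 in replicate 2 and for 23 in both (26.7% of 86, exact 95% interval 17.8% to 37.4%). Over all protein-coding genes the shares with a peak were 22.0%, 26.7% and 17.0%. Exact intervals here and below treat genes or peaks as independent counts and cover counting error only. In at least 1 library 49 of the 86 genes had a peak, against 31.7% of all protein-coding genes. Among genes with a peak in at least 1 library the order turned: 23 of 49 ribosomal protein genes had one in both (46.9%, 32.5% to 61.7%), against 53.8% of protein-coding genes, a value inside that interval. Of the 49, 7 had peaks in replicate 1 only and 19 in replicate 2 only. The peaks held few tags: there were 40 peaks with 365 tags in replicate 1 and 66 peaks with 898 tags in replicate 2, which is 0.193% and 0.277% of all tags in peaks. No member had more than 3 peaks in replicate 1 or 4 in replicate 2. Whether a gene had a peak because its RNA was enriched or because it was abundant cannot be told apart without input values.

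The subunits did not differ beyond counting error in this count. Of the 52 large-subunit genes 14 had a peak in both libraries (26.9%, 15.6% to 41.0%), and of the 34 small-subunit genes 9 did (26.5%, 12.9% to 44.4%). Other genes of protein synthesis are given beside them: 29 of 69 translation factor genes (42.0%), 8 of 21 genes of ribosome assembly and snoRNA particles (38.1%) and 5 of 78 mitochondrial ribosomal protein genes (6.41%) had peaks in both. Ncl, which encodes nucleolin of the nucleolus, had 109 and 211 tags in replicates 1 and 2. Nop2, an rRNA methyltransferase, had 11 and 68 tags, and Fbl, the methyltransferase of box C/D particles, had no peak. The ribosomal scaffold protein gene Rack1, outside the rule by its symbol, had 6 and 4 peaks with 89 and 144 tags, more tags than any of the 86 genes in either library. Fau, whose product is a fusion with a small-subunit protein, had no peak.

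Ribosomal protein mRNAs are shorter than most, with a median of 836.5 nt over the 86 representative mRNAs against 2547 nt over all protein-coding genes, and a share of genes with a peak moves with length. Among protein-coding genes with an mRNA between 345 and 5179 nt, the range of the members, 14.5% had peaks in both libraries. In a narrower window chosen after seeing the data, the middle 50% of member lengths, 9 of 42 ribosomal protein genes had peaks in both, against 4.0% of all protein-coding genes of those lengths. Levels of the mRNAs are not in the files, so the part of abundance in this difference was not tested.

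The plot of tags per gene shows how few genes carried the signal. Rps9, a small-subunit protein that binds rRNA, had 35 tags in replicate 1 and 126 in replicate 2. Rps3, at the mRNA entry site, had 18 and 114 tags. Rpl3, a large-subunit protein near the peptidyl transferase centre, had 15 and 57. Among these, Rps9 was first in both libraries, and the high Rps3 value came from 1 intronic peak of 94 tags. Next by tags were Rpl4 with 22 in replicate 1 and 50 in replicate 2, Rpl8 with 31 and 44, and Rpl13a with 34 and 40. Rpsa, the small-subunit protein also known as the laminin receptor precursor, had 23 and 39, and Rpl38, which in mouse supports translation of Hox mRNAs, had 18 and 29. Of the other members with peaks, none passed 21 tags in replicate 1 or 26 in replicate 2.

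**Figure D1:**
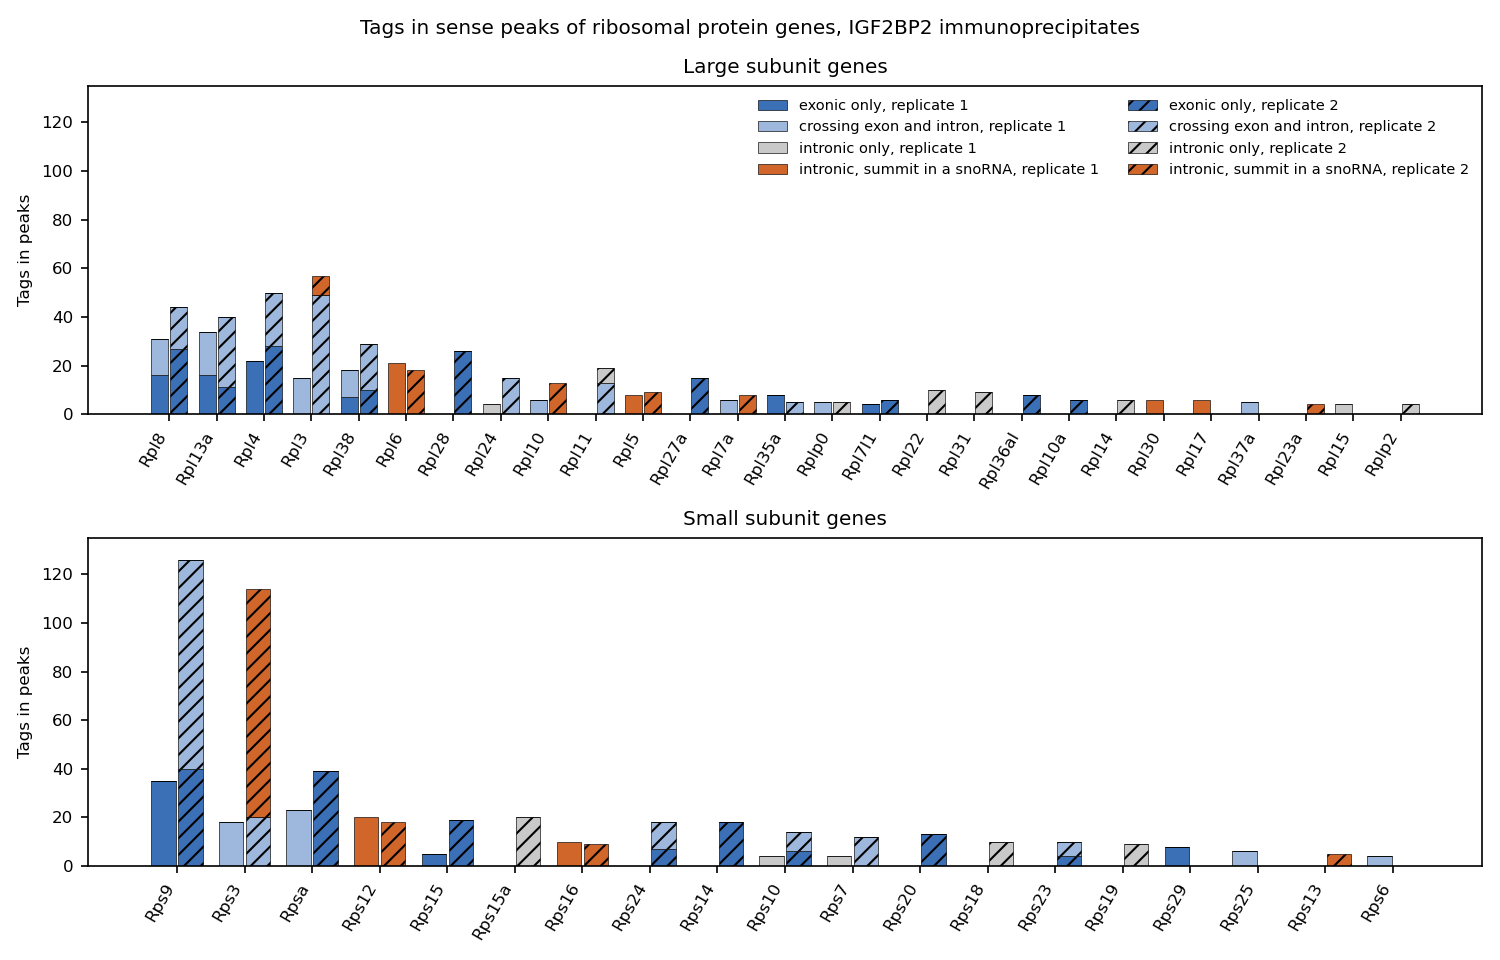
Tags in sense peaks (y axis, tags summed per gene) of 46 of the 49 ribosomal protein genes with a peak (x axis, in order of summed tags), large subunit above and small subunit below; plain bars are replicate 1, hatched bars replicate 2, and colours give the kind of peak. Rps9 reaches 126 tags and Rps3 114 in replicate 2, and most genes stay under 20 tags in both libraries.

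Some members were named whatever their values, for their roles in the stalk, in signalling or in human disease. Rplp0, the base of the ribosomal stalk, had 5 tags in each library, at different places. Rps6, the protein phosphorylated by S6 kinases, had 4 tags in replicate 1, in a peak mostly in an intron, and no peak in replicate 2. Rps14, haploinsufficient in a human myelodysplastic syndrome, had no peak in replicate 1 and 2 exonic peaks of 9 tags each in replicate 2. Rps19, mutated in human Diamond-Blackfan anaemia, had no peak in replicate 1 and 1 intronic peak of 9 tags in replicate 2. Rpl5 and Rpl11 form a complex that inhibits Mdm2. Rpl5 had 8 and 9 tags, all in its snoRNA Snord21, and Rpl11 had no peak in replicate 1 and 19 tags in 3 peaks assigned to introns in replicate 2.

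Of the 86 genes, 37 had no peak in either list. Among the large-subunit genes these were Rpl7, Rpl9, Rpl10l, Rpl12, Rpl13, Rpl18, Rpl19, Rpl21, Rpl22l1, Rpl23, Rpl26, Rpl27, Rpl29, Rpl32, Rpl34, Rpl35, Rpl36, Rpl36a, Rpl37, Rpl39, Rpl39l, Rpl3l, Rpl41 and Rplp1. Among the small-subunit genes they included Rps2, Rps3a1, Rps4x, Rps19bp1, Rps21, Rps26, Rps27, Rps27a, Rps27l, Rps27rt and Rps28. Peaks with fewer than 3 tags are not listed in the files, so no level can be read from an absence. The authors' naming also counts: 5 peaks of 5 to 21 tags on the Rpl13 strand within Rpl13 were named for Gm20388, an overlapping gene, and 1 peak of 3 tags within Rps24 was marked intergenic in replicate 1. Counted for their members, these peaks give 25 genes with a peak in both libraries and 36 with none.

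Exonic and intronic peaks were about equally frequent. A peak was called exonic where the authors' annotation put most of it in coding sequence or untranslated regions, and intronic where most lay in an intron. Exonic peaks were 20 of 40 in replicate 1 (50%, exact 95% interval 33.8% to 66.2%) and 34 of 66 in replicate 2 (51.5%, 38.9% to 64.0%). In the other protein-coding genes 62.9% and 59.8% of peaks were exonic, within both intervals. By gene, 13 members had exonic peaks only, 25 intronic peaks only and 11 both kinds. Exonic peaks were found for 14 members in replicate 1, 21 in replicate 2, 11 in both and 24 in either (16.3%, 24.4%, 12.8% and 27.9%), against 16.0%, 19.7%, 11.6% and 24.1% of all protein-coding genes. These shares were close to those of all genes. Intronic peaks were found for 19, 27, 10 and 36 members (22.1%, 31.4%, 11.6% and 41.9%), against 11.5%, 15.2%, 7.09% and 19.5%. The gap to all genes was larger for intronic than for exonic peaks. For intronic peaks in both libraries the exact 95% interval of the members, 5.72% to 20.3%, included the value of all genes. The intervals for replicate 1 (13.9% to 32.3%), replicate 2 (21.8% to 42.3%) and either (31.3% to 53.0%) lay above the values of all genes.

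Peaks that ran across an exon border into an intron were a larger share in ribosomal protein genes. They made up 14 of 40 peaks in replicate 1 (35.0%, 20.6% to 51.7%) and 23 of 66 in replicate 2 (34.8%, 23.5% to 47.6%), against 19.7% and 22.7% in the other protein-coding genes, both below the intervals. Exonic peaks also often started or ended exactly at an exon border: 15 of 20 did in replicate 1 (75%, 50.9% to 91.3%) and 26 of 34 in replicate 2 (76.5%, 58.8% to 89.3%). In the other genes 64.5% and 65.2% did, within the intervals.

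**Figure D2:**
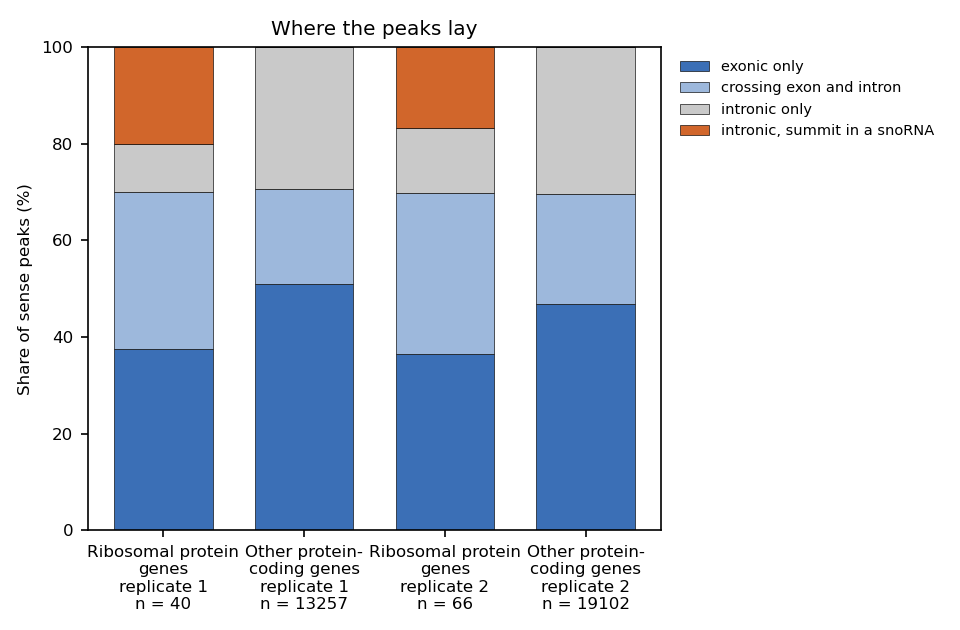
Share of sense peaks (y axis, %) of each kind in ribosomal protein genes and in the other protein-coding genes, for each library; n is the number of peaks. Peaks with their summit in a snoRNA are 20% and 16.7% of the peaks of ribosomal protein genes in replicates 1 and 2, and 0.0981% and 0.0733% in the other genes, too few to be seen.

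As the plot of peak kinds shows, many intronic peaks of ribosomal protein genes overlapped snoRNAs. Of the intronic peaks, 9 of 20 in replicate 1 (45.0%, 23.1% to 68.5%) and 14 of 32 in replicate 2 (43.8%, 26.4% to 62.3%) overlapped an annotated snoRNA on the same strand. In the other protein-coding genes 16 of 4923 (0.325%) and 16 of 7686 (0.208%) did. These counts include peaks that crossed an exon border but lay mostly in an intron. Of the peaks wholly in introns, 7 of 11 (63.6%, 30.8% to 89.1%) and 10 of 18 (55.6%, 30.8% to 78.5%) overlapped a snoRNA. In the other genes 0.361% and 0.224% of such peaks did. By tags, peaks overlapping a snoRNA by at least 1 base held 56.8% of intronic tags in replicate 1 and 50.9% in replicate 2. Without the 94-tag peak of Rps3, an alternative chosen after seeing the data, the replicate 2 share was 39.1%. All tags of such peaks were counted, also those outside the snoRNA. Peaks with their summit inside a snoRNA were 8 of 20 and 11 of 32 intronic peaks (40.0% and 34.4%). They held 78 of 169 and 194 of 483 intronic tags in replicates 1 and 2. By gene, 8 members overlapped a snoRNA with a peak in replicate 1, 13 in replicate 2, 5 in both and 16 in either, against 0.114%, 0.132%, 0.0683% and 0.178% of all protein-coding genes. With the stricter demand that the peak's summit lie inside the snoRNA, 7 members were left in replicate 1, 11 in replicate 2, 4 in both and 14 in either, against 0.0957%, 0.114%, 0.0547% and 0.155%. The 14 members are 16.3% of the 86. Other genes of protein synthesis had such overlaps too: in either library 4 of 69 translation factor genes (5.8%), 1 of 21 genes of ribosome assembly and snoRNA particles (4.76%) and Rack1 overlapped a snoRNA with a peak, and none of the 78 mitochondrial ribosomal protein genes did.

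These shares rest partly on where snoRNAs lie. The 86 genes held 58 annotated snoRNAs in 30 genes, and all other protein-coding genes held 292 in 215 genes. Set against the snoRNAs themselves, a peak summit lay inside 8 of the 58 in replicate 1 (13.8%, 6.15% to 25.4%), 12 in replicate 2 (20.7%, 11.2% to 33.4%) and 16 in either (27.6%, 16.7% to 40.9%). Of the 292 snoRNAs in the other genes, 5.14% held a summit in each library and 7.19% in either. A summit in both libraries was found in 4 of 58 (6.9%, 1.91% to 16.7%) and in 3.08% of the 292. The difference was thus smaller per snoRNA than per peak, and the interval for both libraries included the value of the other genes. Of the 30 members with a snoRNA, 12 had a peak of any kind in both libraries (40.0%, 22.7% to 59.4%), and of the 56 without one, 11 did (19.6%, 10.2% to 32.4%). These counts include the snoRNA peaks, and the intervals overlap. In the other protein-coding genes 47.0% of the 215 hosts and 16.7% of the rest had peaks in both. Exonic peaks in either library were found for 8 of the 30 member hosts (26.7%) and 16 of the 56 members without a snoRNA (28.6%), against 52.1% and 23.8% in the other genes.

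The same snoRNA held a summit in both libraries in 4 genes, those printed above apart from Snord15b. Gm26205 in Rpl6, a large-subunit protein, had 21 tags in replicate 1 and 18 in replicate 2. Snora33 in Rps12, a small-subunit protein, had 14 and 18. In both genes these were the strongest or only peaks, with no exonic peak in either library. AF357399 in Rps16 had 10 and 9 tags, and Snord21 in Rpl5 had 8 and 9. The tag counts of the libraries were thus within 4 of each other in all 4, and the summits lay 11 to 16 nt apart. Snord15b in Rps3 differed: its peak of 94 tags, more than 99.2% of the peaks of that list had, was in replicate 2, and replicate 1 had no peak there.

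Another 10 snoRNAs held a summit in 1 library, each with 4 to 13 tags. In replicate 1 they included Gm26202 in Rpl17, Gm24523 in Rpl30 and Snord100 in Rps12 (6 tags each). In replicate 2 they included Snora70 in Rpl10 (13 tags), Snord83b in Rpl3 and Gm24134 in Rpl7a (8 tags each), Snord14a in Rps13 (5 tags) and Snord42a in Rpl23a (4 tags). The sixteenth snoRNA, Snord68 within Rpl13, had 8 tags in replicate 2 in a peak the authors named for Gm20388. Both classes of snoRNA were present. Of the 15 snoRNAs in peaks named for members, 7 (46.7%) had the C and D box letters, 5 (33.3%) the ACA letters and 3 neither. Of all 58 snoRNAs inside ribosomal protein genes, 37.9% had the C and D letters and 32.8% the ACA letters. Among all 1507 annotated snoRNAs the shares were 20.5% and 18.0%.

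**Figure D3:**
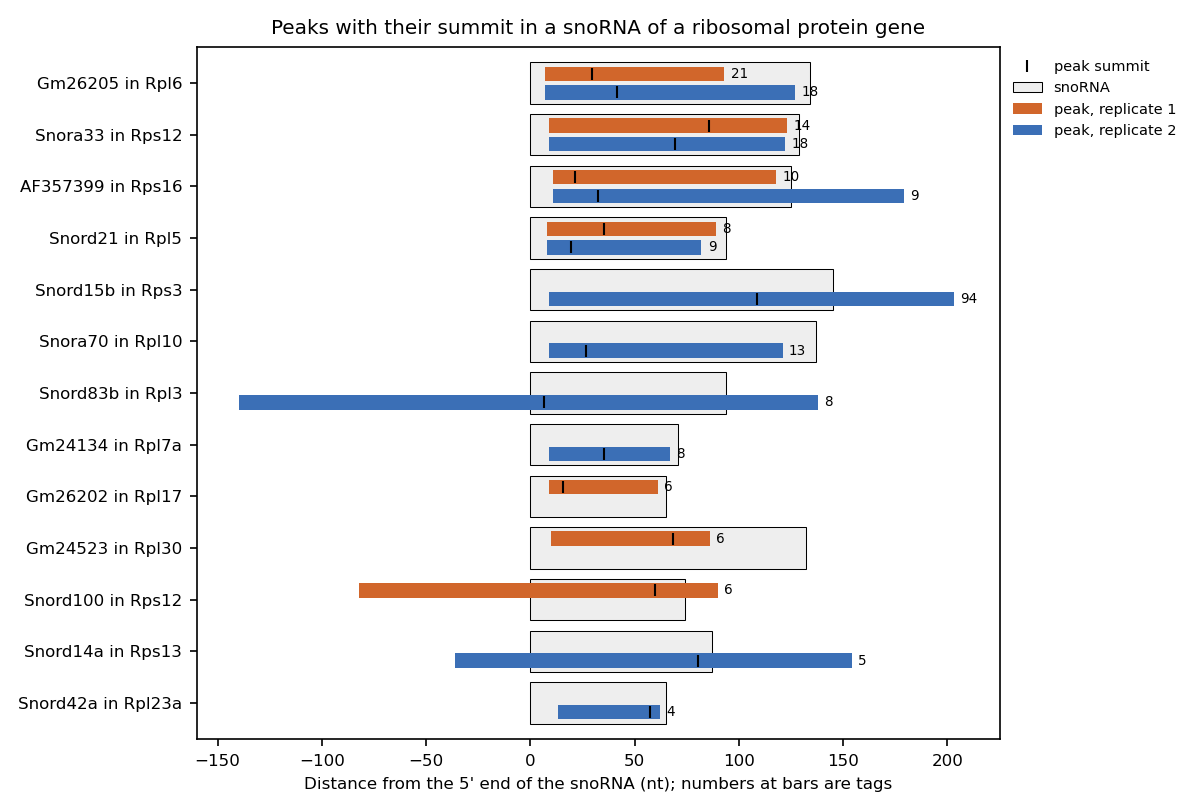
Peaks (coloured bars; orange replicate 1, blue replicate 2) drawn along 13 of the 15 snoRNAs (grey boxes) in which their summits lay, with the x axis in nt from the 5′ end of the snoRNA; ticks mark summits and numbers give tags. Of the 17 peaks drawn, 12 begin 7 to 13 nt inside the 5′ end and end inside the snoRNA.

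The peaks followed the snoRNAs closely, as the map of peaks along the snoRNAs shows. Of the 19 peaks with a summit in a snoRNA, 14 lay wholly within it. These began 7 to 13 nt from its 5′ end, ended 3 to 46 nt before its 3′ end and covered 57.6% to 89.6% of it. Of the other 5, the Rps16 peak of replicate 2 and the Rps3 peak began 11 and 9 nt inside the 5′ end. They ran 54 and 58 nt past the 3′ end. The peaks of Snord83b, Snord100 and Snord14a ran past both ends. In all 19 the maximum height equalled the tag count, so every tag covered 1 common base. This was not particular to snoRNAs. It also held for exonic peaks such as the 19-tag peak of Rps9 and the 10-tag peak of Rpl13a in replicate 1. Peaks of Rpl13a, Rpl3 and Rpl4 also overlapped the snoRNAs Snord33, Snord32a, Gm22077 and Gm22455 without a summit inside.

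Of the intronic peaks without a snoRNA, the 11 in replicate 1 had a median of 5 tags and the 18 in replicate 2 a median of 9. Of these, 2 of 11 (18.2%, exact 95% interval 2.28% to 51.8%) and 2 of 18 (11.1%, 1.38% to 34.7%) overlapped a peak of the other library, against 23.9% and 17.1% in the other protein-coding genes, both inside the intervals. Of the intronic peaks over snoRNAs 5 of 9 (55.6%, 21.2% to 86.3%) and 6 of 14 (42.9%, 17.7% to 71.1%) did, against 68.8% in each library in the other genes, also inside the intervals. The strongest intronic peak without a snoRNA was the 59-tag peak of Rps9 in replicate 2, of which 72.0% was intron and 28.0% coding. The next was the Rpl3 peak of 34 tags in replicate 2, which overlapped a 15-tag peak of replicate 1. Rps15a had 1 peak of 20 tags in replicate 2, wholly in an intron, and none in replicate 1.

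At 17 positions in 14 genes, peaks of both libraries overlapped on the same strand by at least 1 base. The share of genes with such a position was 16.3% in ribosomal protein genes and 9.07% in all protein-coding genes. Per peak the shares lay within counting error of each other: 42.5% and 25.8% of the peaks of ribosomal protein genes in replicates 1 and 2 overlapped one of the other library, against 37.0% and 25.4% in the other protein-coding genes. In 13 of the 17 pairs replicate 2, the list with more tags, had the higher count.

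In 8 genes both peaks of a pair were exonic, with up to 23 tags in replicate 1 and 30 in replicate 2. Rpsa had 23 tags in replicate 1 and 30 in replicate 2 in its last exon, over the end of the coding sequence and the start of the 3′ UTR. Rps9 had 19 and 27 tags in exon 2, with both peaks beginning at the same base, and Rps3 had 18 and 20 tags in exon 5. The libraries were close in all 3. Rpl8, a large-subunit protein at the peptidyl transferase centre, had 16 and 17 tags in exon 6 and 15 and 9 in exon 5. Rpl4 had 13 and 14 tags in exon 10, and in Rpl13a, which in human monocytes leaves the ribosome to silence inflammatory mRNAs, exon 2 had 10 and 11 tags. Rps15, printed above, differed most, with 5 and 19 tags in exon 3, and Rpl35a had 4 and 5 tags at its last coding exon.

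The pairs with an intronic peak were those of the 4 snoRNAs and 4 more. Rpl3 had 15 tags in replicate 1 and 34 in replicate 2, with summits 321 nt apart, the widest gap of all pairs. Rpl13a had 18 and 15 tags across the introns and exons next to Snord33 and Snord32a. The Rpl4 pair, 9 tags in exon 7 and 22 tags in a peak mostly in the intron before it, shared all of that exon. In Rpl24 peaks of 4 and 7 tags met at 1 base only. A further 9 genes had peaks in both libraries but at different places, among them Rpl38, Rps7 and Rplp0.

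Exonic peaks of ribosomal protein genes were of ordinary strength. Their median was 7.5 tags in replicate 1 (4 to 23, 20 peaks) and 9.5 in replicate 2 (4 to 40, 34 peaks), against 8 and 9 in the other protein-coding genes. Coding sequence held most of the exonic peaks, 80.0% in replicate 1 and 73.5% in replicate 2, against 75.6% and 75.5% in the other genes. The 3′ UTR held 15.0% and 14.7%, against 20.1% and 19.9%, values that lie within the exact 95% intervals of the ribosomal protein genes (3.21% to 37.9% and 4.95% to 31.1%).

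The plot of peak midpoints shows where along the mRNA the exonic peaks lay. Over both libraries, 48 exonic peaks had their midpoint on the representative mRNA, and a position with a peak in each library counts as 2 of them. Of the 48, 26 (54.2%) had the midpoint before the middle, against 66.0% of 18897 in the other protein-coding genes. The median relative position, with 0 at the start and 1 at the end, was 0.597 in replicate 1 (95% interval of the median 0.202 to 0.805) and 0.4 in replicate 2 (0.302 to 0.547), against 0.376 and 0.371. Both intervals include the values of the other genes, so the difference was not detectable with these numbers of peaks. A peak of typical length spans a larger part of a short mRNA, and the effect of this on the midpoints was not tested. With the mRNA cut into 10 equal parts, the part at the 5′ end held 12.5% of the midpoints (6 of 48), against 9.94% in the other genes. The part at the 3′ end held 6.25% (3 of 48), against 2.94%.

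**Figure D4:**
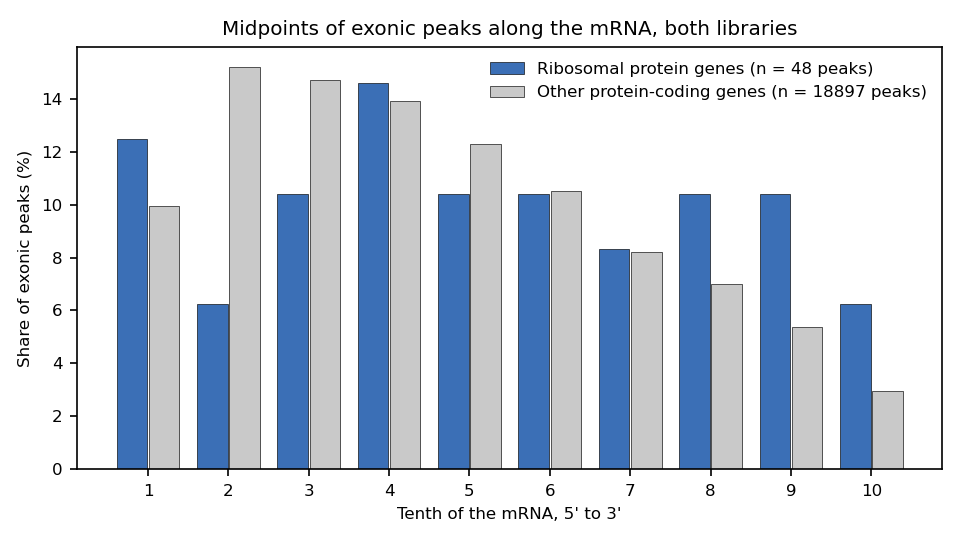
Share of exonic peaks (y axis, %) with their midpoint in each of 10 equal parts of the representative mRNA from the 5′ to the 3′ end (x axis), both libraries pooled, for 48 peaks of ribosomal protein genes and 18897 of other protein-coding genes. The other genes have 15.2% in the second part and 2.94% in the last, while the ribosomal protein genes range between 6.25% and 14.6%.

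Ribosomal protein genes have many processed pseudogenes with nearly the same exon sequence, so exonic reads can align to more than 1 place, and the sources used here do not say how such reads were treated. None of the 300 annotated ribosomal protein pseudogenes with ps in their symbol had a peak in either list, while pseudogenes of any kind had 8 peaks in replicate 1 and 26 in replicate 2. Exonic counts of single members are uncertain for this reason, and the part of read placement in the exonic shares was not tested.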

How the data were processed

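RNA from IGF2BP2 immunoprecipitates of BMDMs was sequenced, and 2 peak lists were used, grouped by sample title. The submitters' processing notes name bcl2fastq, TopHat2 and build GRCm38. The peak caller, its threshold, the treatment of reads that align to several places and any use of the inputs were not given in the sources used here. Each deposited peak has, per the file headers, a whole tag count, which is not normalized and at least 3, and a maximum height, which is a coverage signal. Starts and summits were taken as 0-based, because 9568 of 32465 deposited starts fell on an annotated exon start after adding 1 and 67 without; coordinates printed here are 1-based. Genes were matched by the authors' identifiers without versions to GENCODE release 21 (99.7% and 99.8% of identifiers matched), antisense and intergenic peaks were left out, and each peak took the region covering most of it. The representative mRNA of a gene was chosen by APPRIS rank, transcript support level and coding length. snoRNA and peak overlap needed at least 1 base on the same strand. No input, fold enrichment or p-value was at hand, so shares carry exact Clopper-Pearson 95% intervals and no test across libraries was run; intervals cover counting error only, since tags have no molecular identifiers. The members, gene lists, comparisons and named genes were chosen with earlier results of these data known. Named genes are members with peaks of both libraries at 1 position, with snoRNA peaks, with the most tags per library or with exonic peaks of at least 20 tags, and Rplp0, Rpsa, Rps6, Rps14, Rps19, Rpl5 and Rpl11; others were chosen after their values were seen. Scripts (Python 3.11.15, pandas 2.3.3, scipy 1.17.1) were tested on simulated data. Results for a few members and 1 exon sequence are not reported here.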

Additional observations from a re-analysis of the deposited data

Results flagged for a closer look

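Peaks on the antisense strand of ribosomal protein genes stood outside the comparisons above, and the analysed lists hold no control library. Rpl4 had an antisense peak of 4 tags in replicate 2, at a place where the sense strand had a peak of 14 tags, and Rpl8 had one of 4 tags in replicate 1, where the sense strand had 16 tags. The lists hold only peaks of 3 or more tags, so a listed peak is above 0 by construction and 4 tags are near the lowest value listed. Antisense peaks of 3 tags lay in Rpl5 and Rpsa in replicate 1. None of the 4 recurred in the other library.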

How the results depend on the processing

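Of 54 alternative values, 44 stayed within the limits set for a change. Some could move in a fixed direction only, so this count does not measure how robust the results are. A count in 1 library alone cannot fall below the count in both, and keeping the stronger peaks cannot lower their median tags. The number of ribosomal protein genes with a peak in both libraries, 23, became 14 in the stronger 50% of each list; with 1 library alone, genes with any peak were 30 to 42, with an exonic peak 14 to 21 (11 in both) and with an intronic peak 19 to 27 (10 in both). The median tags of exonic peaks, 9 over both libraries, were 7.5 to 9.5 in 1 library alone and 13 in the stronger 50%. The share of protein-coding genes with peaks in both libraries, 17.0%, was 14.5% in the length range of the members, 4.0% in the middle 50% of member lengths and 53.8% among genes with a peak in either library. In the last case the comparison turned, with 46.9% of ribosomal protein genes below that share. Genes with a shared position have no value with 1 library left out. No paired analysis was possible because the input libraries with the same replicate numbers were not analysed here. With 2 lists of unknown depth and no input, absence of a peak and abundance of an RNA cannot be separated from binding.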
